A study of Mus musculus with 9 samples.

Results

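The 8 genes described here encode proteins that handle retinoids, the vitamin A compounds, inside the cell: Stra6, Rdh10, Dhrs3, Aldh1a1, Aldh1a2, Aldh1a3, Crabp1 and Crabp2. They were chosen by gene symbol, and each symbol matched 1 row of a table of 41761 genes. At 100 µM sodium alginate, against none, Aldh1a1 and Aldh1a2, which make retinoic acid, were lower and Dhrs3, which turns retinal back into retinol, was higher. Rdh10, which makes retinal, showed no call, and the other 4 genes were at very low levels in every library.

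Retinol circulates bound to a carrier and is stored in adipose tissue and liver as retinyl esters. Inside a cell, dehydrogenases of the SDR and ADH families oxidise it reversibly to retinal, and aldehyde dehydrogenases of the ALDH1A family oxidise retinal irreversibly to retinoic acid. Retinoic acid binds carrier proteins in the cytoplasm and activates RAR and RXR nuclear receptors, while CYP26 enzymes break it down. In mouse adipose tissue, retinal, retinoic acid and their enzymes are known to influence how preadipocytes differentiate and how adipocytes handle lipid.

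RNA was sequenced from primary stromal cells of inguinal white fat from wild-type C57 mice, differentiated in culture towards white adipocytes. The medium held sodium alginate, the salt of a brown algal polysaccharide, at 0, 50 or 100 µM, with 3 libraries per dose and 9 in all. Per the treatment protocol, cells at every dose, 0 µM included, first received insulin, dexamethasone, IBMX and rosiglitazone, and then insulin and rosiglitazone. Rosiglitazone is a PPAR gamma agonist, so the 0 µM cells are differentiated cells too. The series' design text does not list rosiglitazone. Titles of the 100 µM libraries give 50 µM, but their treatment labels and library names give 100 µM, and that dose was used. Collection was on day 6 by the titles and on the 7th day by the protocol. Separate cultures or animals behind the libraries of 1 dose are not stated, so p-values measure only library-to-library spread, which may be technical.

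Values are FPKM, fragments per kilobase of gene scaled to library depth, and rebuilt reads ran from 14019672 to 17094467 per library. A gene was tested where at least 3 of the 9 libraries reached 1 FPKM, which 12635 genes did, among them 4 of the 8 retinoid genes. Tests used limma on log2(FPKM + 1), so log2 fold changes are on this scale and understate the change of low genes. Genes with a Benjamini-Hochberg adjusted p under 0.05, over all genes tested, are referred to as called. The titles name the cells as adipose-derived stem cells under white differentiation. Of markers of the labelled cell type, mature white adipocyte, Adipoq, the adiponectin gene, was at 570 to 1011 FPKM. Lep, the leptin gene, was at or below 0.0358 FPKM. The 50 µM library 3 stood apart on the second principal component, at -19.1 against -4.62 to 11.4 for the other libraries. These are bulk libraries, in which fewer cells of a type and less RNA per cell cannot be told apart.

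Aldh1a1 has a close copy beside it, Aldh1a7, and the Aldh1a1 results rest on reads being told apart between them. The copies are shown here where they differ most. Their coding sequences, in GENCODE M21 on GRCm38, have 1506 bases each, of which 1380 are identical (91.6%) and 126 differ. The least alike stretch of 90 bases covers coding positions 310 to 399, counted from the A of the start codon, and holds 19 differences, written in capitals.
Aldh1a1: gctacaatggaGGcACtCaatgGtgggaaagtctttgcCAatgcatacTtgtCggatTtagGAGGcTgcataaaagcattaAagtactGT
Aldh1a7: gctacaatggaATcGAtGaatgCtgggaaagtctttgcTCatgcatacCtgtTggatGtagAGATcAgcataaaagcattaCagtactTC

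The most alike stretch, positions 226 to 315, has 0 differences between Aldh1a1 and Aldh1a7, and a read inside it cannot be given to either gene from its sequence.
Both genes: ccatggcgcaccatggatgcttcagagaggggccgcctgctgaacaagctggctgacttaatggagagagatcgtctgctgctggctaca

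Of 2004 windows of 50 bases in the Aldh1a1 transcript, 151 (7.53%) occur letter for letter in that of Aldh1a7. Of 1904 windows of 150 bases, 0 do. Read length, and the handling of reads that match both genes, were not stated in the labels. The other pairs are further apart: coding identity was 68.8% between Aldh1a1 and Aldh1a2, 67.4% between Aldh1a1 and Aldh1a3, 68.9% between Aldh1a2 and Aldh1a3, and 70.8% between Crabp1 and Crabp2, with 0 shared windows of 50 bases.

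The bases just before the starts of Aldh1a1 and Aldh1a7 are also alike. They are shown because the genes moved in opposite directions at 100 µM. RefSeq on GRCm38.p6 has 2 windows for Aldh1a1, before starts at 20492583 and 20601968, and the window before 20601968 is compared here with that of Aldh1a7. Over the whole window of 250 bases, 173 of 235 aligned pairs (73.6%) were identical. Of the 120 bases nearest to the start, shown here, 15 differ, in capitals, so that 87.5% are identical. Aldh1a1 is at chr19:20601848-20601967 on the plus strand and Aldh1a7 at chr19:20727557-20727676 on the minus strand.
Aldh1a1: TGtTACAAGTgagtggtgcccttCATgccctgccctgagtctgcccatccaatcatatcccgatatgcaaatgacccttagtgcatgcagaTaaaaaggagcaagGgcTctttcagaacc
Aldh1a7: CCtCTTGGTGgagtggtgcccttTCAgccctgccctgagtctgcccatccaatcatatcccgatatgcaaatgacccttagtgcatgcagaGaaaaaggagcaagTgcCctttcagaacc

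Both stretches hold CCAAT, the letters of the CCAAT box, 72 bases before the start. CCAAT or its reverse complement ATTGG is in 33.8% of 32851 RefSeq windows of 250 upstream bases. AGGTCA or its reverse complement TGACCT, the half-site bound by RAR, RXR and PPAR among others, was in 0 of 11 such windows of the 5 of 8 retinoid genes with an entry, against 14.02% of all windows. So few windows cannot show a lack of the half-site, and they are not all separate. The Dhrs3 windows before starts at 144893077 and 144893137 overlap. A match or its absence describes the letters of a window and says nothing of binding.

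Stra6 encodes the membrane receptor that takes up retinol from its plasma carrier. Stra6 had 2 rebuilt reads in 100 µM library 3 and 0 in the other 8 libraries. A count of 0 allows up to 3 reads, which for Stra6 is 0.0306 to 0.0379 FPKM depending on the library, counting error only. The Stra6 transcript was thus not detectable at this depth in 8 libraries, and no difference between doses could be read. Stra6 (MGP_C57BL6NJ_G0035376) lies on chromosome 9 at 58909684 to 59013010, plus strand, and overlaps Ccdc33 and Gm16131, so even its 2 reads are uncertain. These and all further gene coordinates are those of the table, on the C57BL/6NJ strain assembly.

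Rdh10 encodes the membrane-bound retinol dehydrogenase that makes most retinal in the mouse embryo. Rdh10 had FPKM values of 5.64, 6.15 and 5.09 at 0 µM, 5.25, 6.76 and 6.27 at 50 µM and 5.81, 5.52 and 5.43 at 100 µM. The 3 doses overlapped fully. The log2 fold change at 100 µM over 0 µM was -0.0061 ± 0.0878 (SE), with a 95% interval of -0.20 to 0.19 and an adjusted p of 0.967 with limma. Its estimate was 0.096 for 50 µM over 0 µM (adjusted p = 0.694) and -0.10 for 100 µM over 50 µM (adjusted p = 0.440). The interval bounds the change on the log2 scale and does not show that Rdh10 was equal between doses. Rdh10 (MGP_C57BL6NJ_G0016245) is on chromosome 1 at 14197921 to 14225878, plus strand.

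Dhrs3 encodes a retinal reductase, which returns retinal to retinol and, in mouse embryos, keeps retinoic acid in check. Dhrs3 had FPKM values of 36.9, 38.0 and 36.3 at 0 µM, 40.8, 41.1 and 41.3 at 50 µM and 43.2, 46.0 and 46.2 at 100 µM. Every 50 µM library was above every 0 µM library, and every 100 µM library above every 50 µM library. Dhrs3 averaged 45.2 ± 1.69 FPKM at 100 µM, against 37.0 ± 0.894 FPKM at 0 µM (SD, n = 3 each), a log2 fold change of 0.28 ± 0.0399 (SE; adjusted p with limma = 0.000721). The step at 50 µM over 0 µM was 0.15 and was not called (adjusted p = 0.125), although the libraries did not overlap. The step at 100 µM over 50 µM was 0.13 and was called (adjusted p = 0.0377). That call was lost in 13 of 19 alternative settings, with adjusted p up to 0.296, and the estimate fell to 0.071 on a common-sum (TPM) scale. Dhrs3 (MGP_C57BL6NJ_G0029527) is on chromosome 4 at 153237359 to 153279406, plus strand.

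Aldh1a1 encodes the cytosolic retinal dehydrogenase that is the main form in white fat of mice. Aldh1a1 had FPKM values of 73.0, 81.0 and 73.9 at 0 µM, 65.5, 64.7 and 66.5 at 50 µM and 53.2, 59.7 and 55.2 at 100 µM. The order ran opposite to that of Dhrs3: each higher dose lay below the next lower dose with no overlap. Aldh1a1 averaged 56.0 ± 3.34 FPKM at 100 µM, against 76.0 ± 4.39 FPKM at 0 µM (SD, n = 3 each), a log2 fold change of -0.43 ± 0.0549 (SE; adjusted p with limma = 0.000362). At 50 µM over 0 µM the estimate was -0.21, not called (adjusted p = 0.117). Between 100 µM and 50 µM it was -0.23 (adjusted p = 0.0163), and this call was lost at the margin without 100 µM library 3 (adjusted p = 0.0501). Aldh1a1 (MGP_C57BL6NJ_G0025391) is on chromosome 19 at 19246238 to 19291523, plus strand.

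Aldh1a7, the neighbouring copy, lies 50307 bases away on chromosome 19 at 19341831 to 19384019, minus strand. Its product is a close relative of Aldh1a1 that is known to be a poor retinal dehydrogenase in the mouse. Aldh1a7 had FPKM values of 124.0, 111.0 and 121.5 at 0 µM, 146.7, 146.3 and 139.9 at 50 µM and 204.0, 234.1 and 220.9 at 100 µM. Each higher dose lay above the next lower dose, opposite to Aldh1a1. The log2 fold change of Aldh1a7 was 0.88 ± 0.0608 at 100 µM over 0 µM (SE; adjusted p with limma = 1.89e-05), 0.28 at 50 µM over 0 µM (adjusted p = 0.0728) and 0.60 at 100 µM over 50 µM (adjusted p = 0.000343). Aldh1a7 passed the threshold at 50 µM over 0 µM with the voom test on rebuilt reads (adjusted p = 0.00854) and under a stricter filter (adjusted p = 0.0477).

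The summed level of the pair was 275.7 ± 18.3 FPKM at 100 µM, against 194.8 ± 2.57 FPKM at 0 µM (SD, n = 3 each). The share of Aldh1a1 in that sum was 39.0% ± 2.78 at 0 µM, 31.3% ± 0.843 at 50 µM and 20.3% ± 0.342 at 100 µM. An exact two-sided permutation test gave p = 0.1 for the sum and for the share in each of the 3 comparisons, the smallest p that 3 against 3 libraries allow, and 0.1 after adjustment over these 6 tests. Reads shared between the copies could move a part of either value to the other gene, and their part in the result was not tested.

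**Figure D1:**
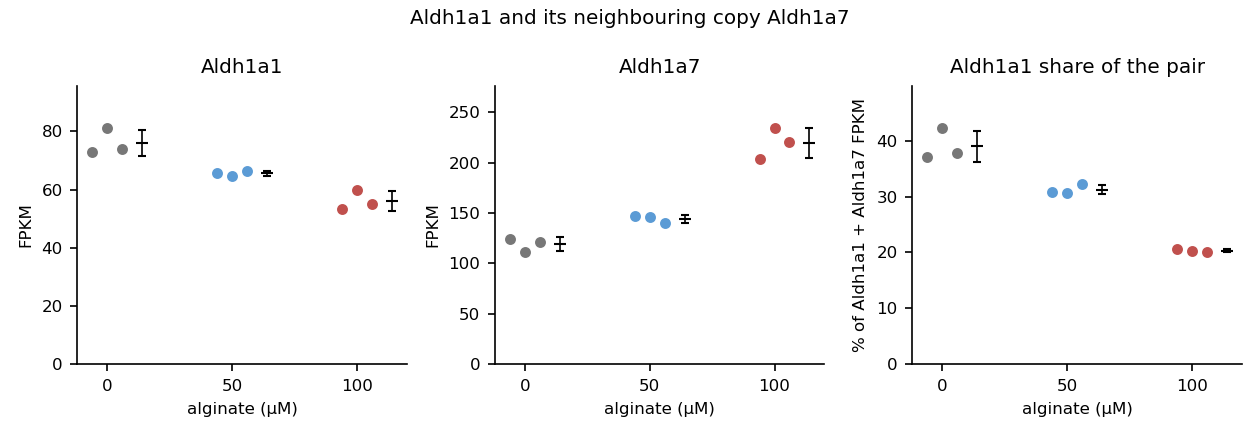
FPKM of Aldh1a1 (left) and Aldh1a7 (middle) and the percentage of Aldh1a1 in the sum of both (right) against alginate dose in µM. Points are libraries and bars are mean ± SD of 3. Aldh1a1 is lowest and Aldh1a7 highest at 100 µM, where the share of Aldh1a1 is 20.3%.

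Aldh1a2 encodes the retinal dehydrogenase that supplies most retinoic acid in the early mouse embryo and is also made by mesothelial cells. Aldh1a2 had FPKM values of 6.82, 8.79 and 8.73 at 0 µM, 7.95, 8.44 and 7.96 at 50 µM and 5.38, 4.75 and 4.99 at 100 µM. Unlike Aldh1a1, its 0 and 50 µM libraries overlapped, and only the 100 µM libraries lay apart, below all 6 others. Aldh1a2 averaged 5.04 ± 0.318 FPKM at 100 µM, against 8.11 ± 1.12 FPKM at 0 µM (SD, n = 3 each), a log2 fold change of -0.59 ± 0.0875 (SE; adjusted p with limma = 0.000885). Against 50 µM it was -0.60 (adjusted p = 0.00143). At 50 µM over 0 µM the estimate was 0.0073, with a 95% interval of -0.19 to 0.20 (adjusted p = 0.985). Whether the shapes of Aldh1a1 and Aldh1a2 over dose differ was not tested. Aldh1a2 (MGP_C57BL6NJ_G0035499) is on chromosome 9 at 73218170 to 73300862, plus strand.

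Aldh1a3, the remaining retinal dehydrogenase of the family, lay between 0.202 and 0.450 FPKM, from 15 to 35 reads per library and 208 in all. Its doses overlapped, and it was under the filter for testing. Without the filter, over 25286 genes, Aldh1a3 had limma adjusted p of 0.985 at 100 µM over 0 µM, 0.836 at 50 µM over 0 µM and 0.777 at 100 µM over 50 µM. Aldh1a3 (MGP_C57BL6NJ_G0032835) is on chromosome 7 at 70534783 to 70571483, minus strand.

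Crabp1 and Crabp2 encode the cellular carriers of retinoic acid. Crabp2 hands it to the receptors, and Crabp1 is usually linked to its breakdown. Crabp1 had 8, 9 and 2 reads at 0 µM, 1, 1 and 3 reads at 50 µM, and 5, 2 and 2 reads at 100 µM, or 0.0741 to 0.749 FPKM. Crabp2 had 5, 4 and 6 reads at 0 µM, 7, 7 and 0 reads at 50 µM, and 11, 6 and 4 reads at 100 µM, at most 0.499 FPKM. For both genes the doses overlapped at such counts. The largest estimate was that of Crabp1 at 50 µM over 0 µM, with an unadjusted p of 0.0261 and an adjusted p of 0.406 without the filter (limma). Crabp1 (MGP_C57BL6NJ_G0035322) is on chromosome 9 at 55325722 to 55334084 and Crabp2 (MGP_C57BL6NJ_G0027795) on chromosome 3 at 91323265 to 91327975, both on the plus strand.

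**Figure D2:**
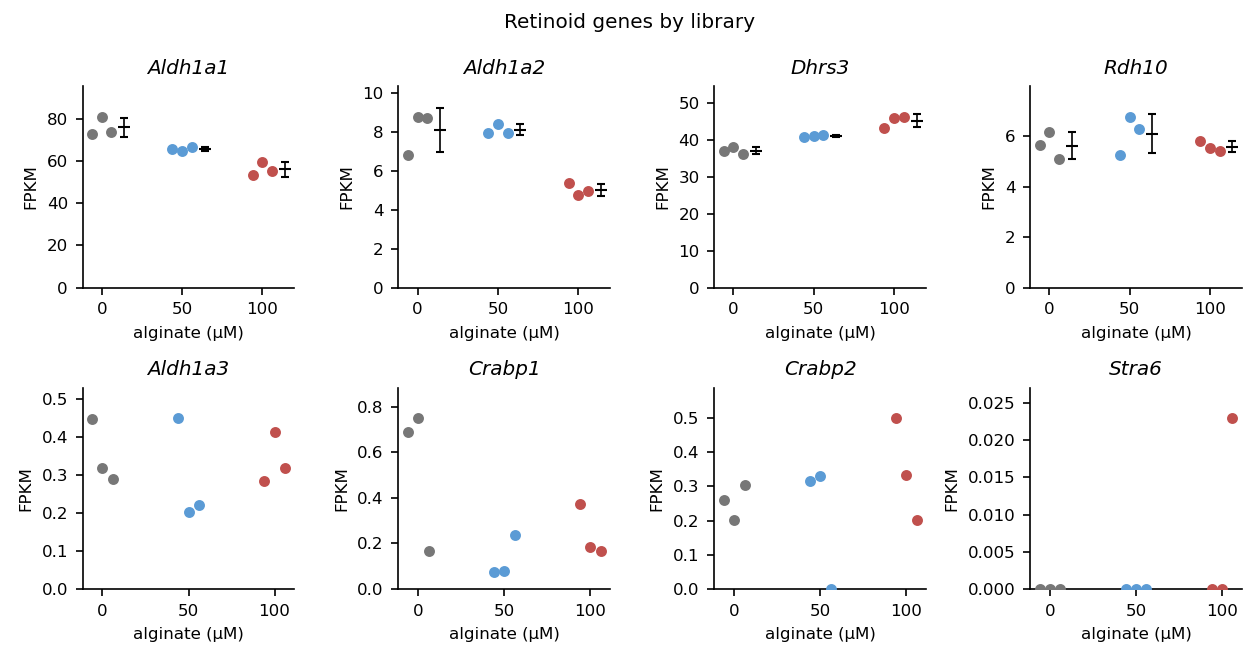
FPKM of the 8 retinoid genes against alginate dose in µM, with a separate axis from 0 for each gene. Points are libraries, and bars are mean ± SD of 3 for the 4 tested genes. Aldh1a1 and Aldh1a2 are lower and Dhrs3 higher at 100 µM, while the genes in the lower row stay under 1 FPKM.

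Per length, the levels thus differed widely among the 8 genes. By mean FPKM over the 9 libraries, Aldh1a1 ranked 852 of 25286 genes above 0, Dhrs3 1379, Aldh1a2 6320 and Rdh10 7051. Aldh1a3, Crabp1 and Crabp2 followed at 14905, 15108 and 15354, and Stra6 at 24999. Every Aldh1a1 value exceeded every Dhrs3 value. Aldh1a2 lay above Rdh10 in all libraries at 0 and 50 µM and below it in all libraries at 100 µM, and the ranges of Aldh1a3, Crabp1 and Crabp2 overlapped.

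At 100 µM over 0 µM, 3 of the 4 tested retinoid genes were called, 1 higher and 2 lower, against 33.9% of all genes tested. All 12635 genes gave 2314 higher calls (18.3%) and 1965 lower calls (15.6%), a split that turned to 1630 higher and 2633 lower on the TPM scale and to 1731 higher and 2658 lower once the authors' scaling per library was removed. The 3 calls are few beside so wide a background, and read alone they do not set these genes apart. The libraries did not overlap in 3 of the 4 genes, against 47.9% of all genes. In 19 alternative settings the 3 calls held, with limma adjusted p of at most 0.00202 for Aldh1a1, 0.00495 for Aldh1a2 and 0.0068 for Dhrs3.

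At 50 µM over 0 µM, 0 of the 4 were called, against 0.791% of all genes (100 genes), 0.356% higher and 0.435% lower. With limma on rebuilt reads (voom) 1 was called, Aldh1a1. In the limma test on FPKM, Aldh1a1 and Dhrs3 reached an unadjusted p under 0.05, as did 14.4% of all genes (1814). The libraries of Aldh1a1 and Dhrs3 did not overlap, against 20.7% of all genes. At 100 µM over 50 µM, 3 of the 4 were called, Dhrs3 higher and Aldh1a1 and Aldh1a2 lower, against 25.1% of all genes, 13.2% higher and 12% lower. The libraries of these 3 did not overlap, against 40.4%. The 3 comparisons share libraries and are not independent of each other.

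The other genes of the pathway were taken from 7 lists by role, chosen with earlier results of these data known. Counting each gene once, 38 of 62 listed genes were tested, and at 100 µM over 0 µM 22 were higher, 3 lower and 13 not called. Of all genes tested, 18.3% were higher and 15.6% lower there, and these shares also stand beside the counts by list that follow. The median log2 fold change of the 38 listed genes was 0.30, against 0.0060 for all genes. The 4 tested genes described above had a median of -0.22 but went both ways, from -0.59 for Aldh1a2 to 0.28 for Dhrs3. At 50 µM over 0 µM 1 of the 38 was higher, Lipe, and 0 lower, with a median of 0.067 against 0.0097 for all genes. Of all genes tested, 0.356% were higher and 0.435% lower there. The Lipe call (log2 fold change 0.33, adjusted p = 0.0253 with limma) was lost in 9 of 19 alternative settings, with adjusted p up to 0.101. At 100 µM over 50 µM 20 of the 38 were higher and 3 lower, with a median of 0.23, against 13.2% higher and 12% lower of all genes.

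Among 4 tested genes of retinol entry, carriage and storage, 3 were higher and 0 lower at 100 µM over 0 µM. Dgat1, which esterifies diacylglycerol and also retinol, averaged 132.9 ± 3.37 FPKM at 100 µM, against 82.3 ± 5.16 FPKM at 0 µM (SD, n = 3 each; log2 fold change 0.69, adjusted p = 2.07e-05). Scarb1, a lipoprotein receptor that also takes up carotenoids, rose by 0.44 (adjusted p = 0.000357). Rbp4, the plasma retinol carrier, rose by 0.28 (adjusted p = 0.0198), a call lost in 6 of 19 settings with adjusted p up to 0.0715. Lrat, the main retinol-esterifying enzyme of the liver, was at 0 reads in every library.

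All 5 genes of retinyl ester hydrolysis rose at 100 µM over 0 µM. They are lipases of triglyceride as well, and Lipe and Pnpla2 are also among the adipocyte markers used below. Lipe, hormone-sensitive lipase, averaged 209.3 ± 8.96 FPKM at 100 µM, against 126.1 ± 4.13 FPKM at 0 µM (SD, n = 3 each; log2 fold change 0.73, limma adjusted p = 1.55e-05). Pnpla2, adipose triglyceride lipase, rose by 0.76, Pnpla3 by 0.85 and Lpl, lipoprotein lipase, named after its values were seen, by 0.39. Ces1d, a carboxylesterase, rose by 1.03, but it belongs to a family of close copies and its value is uncertain.

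Of 10 tested genes for other retinol dehydrogenases and retinal reductases, 7 were higher at 100 µM over 0 µM and 0 lower. Rdh12, which reduces retinal in mouse photoreceptors, averaged 9.07 ± 0.353 FPKM at 100 µM, against 4.89 ± 0.119 FPKM at 0 µM (SD, n = 3 each; log2 fold change 0.77, limma adjusted p = 2.25e-05). Adh1, an alcohol dehydrogenase that clears retinol in the mouse, rose by 0.51 (adjusted p = 0.000216). Rdh11, a retinal reductase, rose by 0.47, and Dhrs4, a carbonyl reductase that accepts retinal, by 0.39. The estimates of those not called were 0.15 for Adh5, -0.084 for Adh7 and 0.039 for Dhrs7. Among 4 other aldehyde dehydrogenases 2 were higher, Aldh1a7 and the mitochondrial Aldh2 (0.32, adjusted p = 0.000458), while the estimates were -0.033 for Aldh1b1 and -0.021 for Aldh3a2.

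Of the retinoic acid breakdown genes, Cyp26b1 alone was tested and was not called at 100 µM over 0 µM (log2 fold change -0.091, limma adjusted p = 0.661). Cyp26a1, whose transcription retinoic acid is known to raise in many cells, had 11 reads over all 9 libraries.

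Among 8 genes for receptors and the fatty acid binding carrier, 4 were higher and 1 lower at 100 µM over 0 µM. Fabp5, a fatty acid carrier that can also bring retinoic acid to PPAR delta, had FPKM values of 308.0, 303.2 and 291.3 at 0 µM, 344.5, 344.6 and 372.6 at 50 µM and 501.3, 503.04 and 466.9 at 100 µM. No doses overlapped, and the log2 fold change was 0.70 at 100 µM over 0 µM (limma adjusted p = 2.14e-05). Of the RXR partner receptors, Rxrg rose by 0.53 (adjusted p = 0.0064), Rxra by 0.19 (adjusted p = 0.022) and Rxrb by 0.17 (adjusted p = 0.0264). The Rxra and Rxrb calls were each lost in 7 of 19 settings, with adjusted p up to 0.204 and 0.226. Rara, a retinoic acid receptor named here after its values were seen, averaged 3.84 ± 0.206 FPKM at 100 µM, against 5.00 ± 0.828 FPKM at 0 µM (SD, n = 3 each), and its call (log2 fold change -0.30, adjusted p = 0.0468) was lost in 12 of 19.

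Of 8 tested retinoic acid response genes, 1 was higher and 2 lower at 100 µM over 0 µM, and 5 were not called. Rai14, a retinoic acid induced cytoskeletal gene, averaged 5.31 ± 0.331 FPKM at 100 µM, against 8.55 ± 0.0767 FPKM at 0 µM (SD, n = 3 each; log2 fold change -0.60, limma adjusted p = 0.000103). Rarres2, which encodes the adipokine chemerin, fell to 21.8 ± 1.19 FPKM at 100 µM, against 27.6 ± 0.855 FPKM at 0 µM (log2 fold change -0.33, adjusted p = 0.00804). Nrip1, a nuclear receptor corepressor, rose by 0.26 (adjusted p = 0.0173), a call lost in 4 of 19 settings with adjusted p up to 0.106. Rarb, a retinoic acid receptor gene named after its values were seen, was not called (0.29, limma adjusted p = 0.105). It was called higher at 100 µM over 50 µM (0.39, limma adjusted p = 0.0466), and was not checked in the alternative settings. In that comparison 2 genes of the list were higher and 2 lower, against 13.2% and 12% of all genes. The median of the list at 100 µM over 0 µM was -0.0018, against 0.0060 for all genes.

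**Figure D3:**
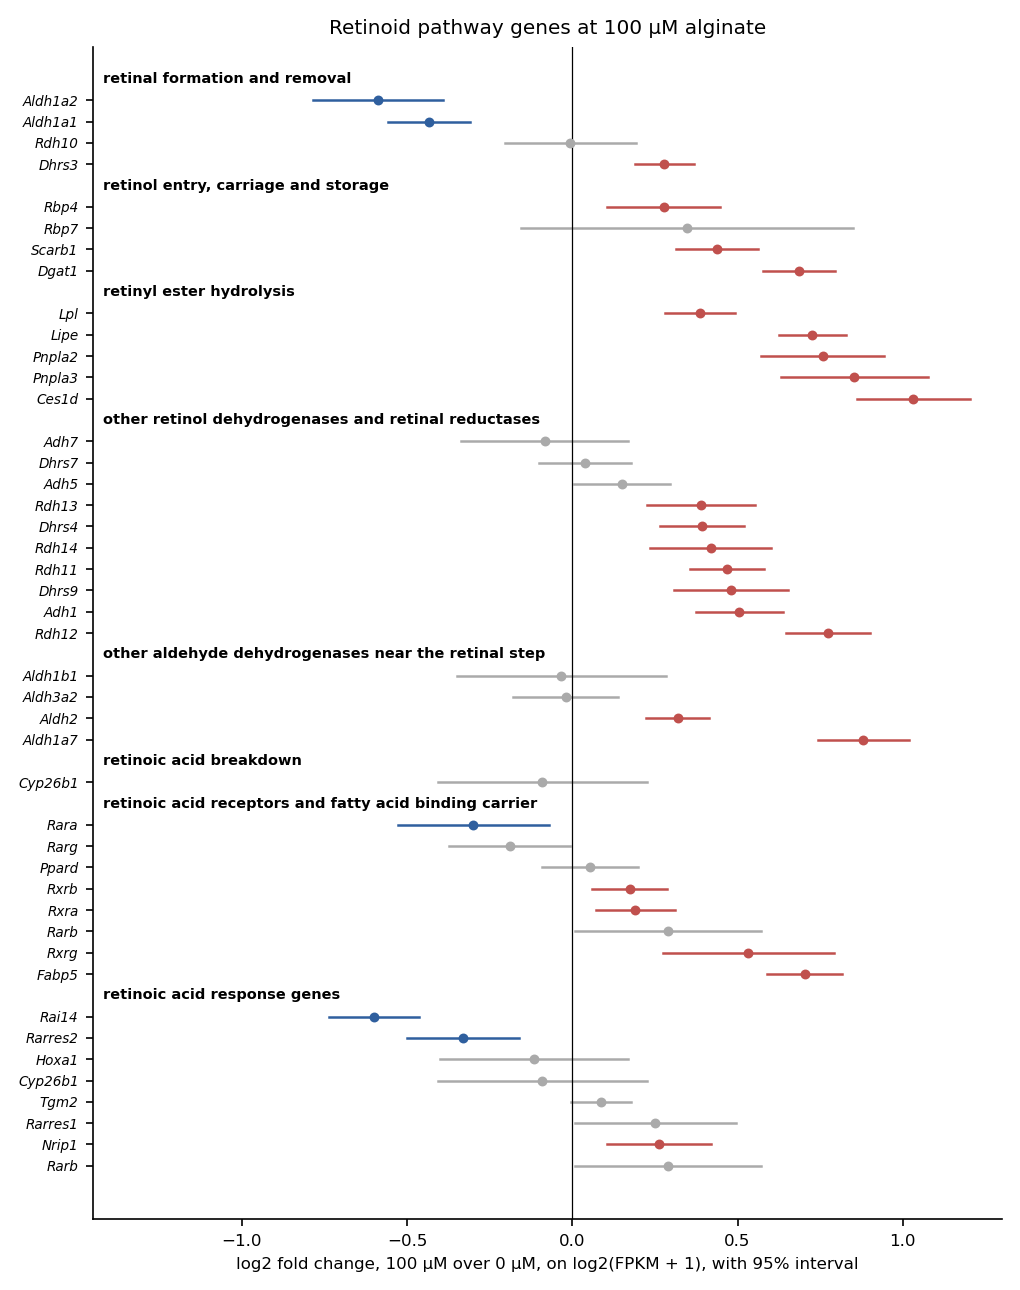
Log2 fold change at 100 µM over 0 µM alginate on log2(FPKM + 1) for the tested retinoid genes, by role, with 95% intervals. Genes in 2 lists stand under both. Red marks genes called higher, blue called lower and grey not called. All 5 genes of retinyl ester hydrolysis lie right of 0, and Aldh1a1, Aldh1a2 and Rai14 lie left of it.

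The marker genes of cell types that the culture could hold moved at the same doses. Beside their counts, 18.3% of all genes tested were called higher and 15.6% lower at 100 µM over 0 µM. At 50 µM over 0 µM these shares were 0.356% and 0.435%. The summed level of the adipocyte list was 4889 to 5038 FPKM at 0 µM, 5326 to 5791 FPKM at 50 µM and 7311 to 7933 FPKM at 100 µM, and 11 of 11 tested genes were higher at 100 µM over 0 µM. The progenitor and fibroblast list summed to 1188 to 1247 FPKM at 0 µM, 1021 to 1162 FPKM at 50 µM and 748 to 826 FPKM at 100 µM, with 9 of 10 lower. Fewer genes were called at 50 µM over 0 µM, 3 of 11 adipocyte genes higher and 2 of 10 progenitor genes lower, so most genes of both lists were not called there. By these sums alone, Aldh1a1 had the order of the progenitor list over the 3 doses and Dhrs3 that of the adipocyte list. Single genes of the lists differed in order. Pdgfra and Pdpn fell at each step without overlap. Thy1, Anxa3, Ly6a and Pdgfrb overlapped between 0 and 50 µM and lay apart only at 100 µM. Dcn, Cd34 and Cd248 lay lower at 50 µM and overlapped between 50 and 100 µM. Plin1 and Cidec rose at each step, while Fabp4, Pnpla2 and Slc2a4 overlapped between 0 and 50 µM. The part of both lists in the results was not tested.

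Among other cell types, the macrophage list summed to 231 to 258 FPKM at 0 µM, 249 to 255 FPKM at 50 µM and 185 to 192 FPKM at 100 µM, with 7 of 9 lower at 100 µM over 0 µM. The endothelial list summed to 183 to 204 FPKM at 0 µM, 181 to 194 FPKM at 50 µM and 155 to 158 FPKM at 100 µM, with 8 of 9 lower. The mesothelial list, for a cell type known to make Aldh1a2, summed to 7.17 to 9.80 FPKM at 0 µM, 8.65 to 11.8 FPKM at 50 µM and 4.41 to 5.20 FPKM at 100 µM. Of its 10 genes, 8 were under 1 FPKM in every library, among them the defining genes Msln, Upk3b and Wt1, and Upk1b, which was at 0. The mesothelial sum thus rests mostly on Krt19 and Gpm6a, the only genes of the list that were tested, and both were lower. The smooth muscle and pericyte list summed to 294 to 336 FPKM at 0 µM, 296 to 348 FPKM at 50 µM and 204 to 223 FPKM at 100 µM, with 2 genes higher and 2 lower of 8 tested. Like Aldh1a2, the sums of these 4 lists overlapped between 50 and 0 µM and lay apart, lower, at 100 µM. Single genes differed here too. The endothelial Pecam1 and Eng overlapped between 0 and 50 µM, while Cdh5 and Emcn fell at each step without overlap. A sum follows its most abundant genes, and the smooth muscle and pericyte list did not fall as a whole. Its median log2 fold change at 100 µM over 0 µM was -0.027, with Acta2 (-0.63) and Tagln (-0.54) lower and Cspg4 (0.37) and Mcam (0.21) higher. The part of these lists in the results was not tested.

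**Figure D4:**
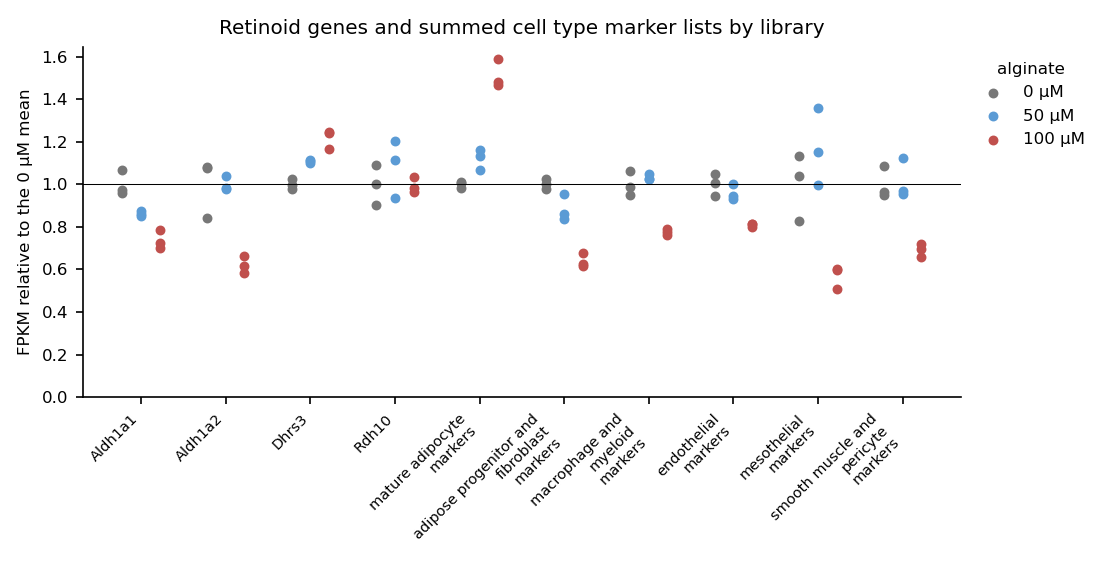
FPKM relative to the mean of the 0 µM libraries for Aldh1a1, Aldh1a2, Dhrs3 and Rdh10 and for the summed FPKM of 6 cell type marker lists. Points are libraries, from 0 µM on the left of each group to 100 µM on the right. At 100 µM the adipocyte sum is higher and the other 5 sums are lower, although not every gene of those lists was lower.

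Over the 9 libraries, the protein-coding genes with the most similar profiles were found by the root mean square difference of log2(FPKM + 1) values centred on each gene's mean, among 7165 genes of at least 5 FPKM on average. The nearest to Aldh1a1 were Meox2 (0.0465), Slc43a3 (0.0474) and Rnd3 (0.0482), where the spread of Aldh1a1 itself was 0.186. The nearest to Aldh1a2 were Slc25a24 (0.0616), Fbln5 (0.0663) and Eogt (0.0698), with a spread of 0.295. The nearest to Dhrs3 were Rrn3 (0.0156), Ywhag (0.0273) and Nap1l4 (0.0311), with a spread of 0.118. These differences are on the log2 scale and describe likeness only.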

How the data were processed

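Gene expression was measured by RNA-seq in 9 libraries. The authors deposited 1 table of FPKM values per gene, per the file headers. GRCm38 and mm10 are the builds in the submitters' processing notes, but gene identifiers and coordinates of the table follow the C57BL/6NJ assembly. Not given in the sources used here are the aligner, the counter and the strand setting. To rebuild reads, FPKM was multiplied by gene length and divided by the smallest such product above 0 in the library, taken as a single read. This gave whole reads for 100% of FPKM values (tolerance 0.01 read). These values already carry a scaling factor per library.

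limma 3.58.1 in R 4.3.3 was fitted on log2(FPKM + 1) with 1 mean per dose over 9 libraries, for genes of at least 1 FPKM in at least 3 libraries, with Benjamini-Hochberg adjustment over all genes tested, two-sided. Alternatives covered the pseudocount, filters, scaling, voom on rebuilt reads, only 2 doses, a replicate block and leaving out each library. The procedure was tested on simulated data, with planted changes larger than those of Aldh1a1, Aldh1a2 and Dhrs3. The spread between simulated libraries was a fixed, assumed value and was not estimated from these data. How well the procedure finds changes as small as theirs, at the spread of these libraries, was not tested. The genes and lists were chosen with earlier results of these data known. A gene first placed in the pathway lists is not reported here and was left out of their counts. All 8 genes are named, with up to 4 called genes per pathway list by smallest p at 100 µM over 0 µM, and genes named beside small counts, such as Rara and Lpl, were chosen after their values were seen. Sequences came from GENCODE M21 and RefSeq and were compared with Biopython 1.88.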

Additional observations from a re-analysis of the deposited data

How the results depend on the processing

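The calls of Aldh1a1, Aldh1a2 and Dhrs3 at 100 µM over 0 µM held in all 19 alternatives. At 50 µM over 0 µM, where 0 of the retinoid genes were called, voom called 1 (Aldh1a1, adjusted p = 0.0476). At 100 µM over 50 µM, leaving out 1 library at a time left 1 to 3 of the 3 calls, with 1 without 100 µM library 3. Dhrs3 lost that call without 0 µM library 1 or 3, any 50 µM library, or 100 µM library 2 or 3. Its estimate there was 0.071 on the TPM scale, 0.080 with quantile normalization and 0.065 with the authors' factor removed, and the cause was not tested. No pairing of the doses by library number was visible. The correlation of deviations between same-numbered libraries was -0.0941 to 0.0412, against -0.0814 to 0.0983 between differently numbered libraries of different doses. Whether same-numbered libraries share a culture or animal is not stated. With a replicate block, 3 retinoid genes were called at 100 µM over 0 µM, 0 at 50 µM over 0 µM and 2 at 100 µM over 50 µM. Over all genes, the 100 calls at 50 µM over 0 µM became 12 with no filter, 208 with a stricter filter, 348 with voom, 0 with only 2 doses fitted, 0 with the replicate block, and 0 to 112 leaving out 1 library. At 100 µM over 50 µM the split of 1663 higher and 1510 lower became 1060 and 2031 on the TPM scale and 1102 and 2180 with the authors' factor removed. Directions of estimates near 0 turned, the cause not tested. Rdh10 at 100 µM over 0 µM was 0.0049 with quantile normalization and -0.065 to 0.050 leaving out 1 library. At 50 µM over 0 µM, the TPM scale and quantile normalization gave -0.0031 and -0.0063 for Aldh1a2, -0.010 and -0.024 for Rbp4, and -0.0038 and -0.025 for Adh1, and voom gave -0.00037 for Rbp4. Leaving out 1 library there gave -0.099 to 0.063 for Aldh1a2, -0.075 to 0.061 for Rbp4, -0.027 to 0.055 for Adh1, -0.083 to 0.034 for Nrip1, -0.015 to 0.058 for Rxra, -0.064 to 0.13 for Rara and -0.076 to 0.0062 for Rai14. Depth limits Stra6, Crabp1 and Crabp2, whose read counts allow no statement on dose, and leaves Aldh1a3, with 15 to 35 reads per library, under the filter.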
